A study of Mus musculus with 41 samples.

Results

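Callus from old mice was compared with callus from young mice 5 days after tibial fracture, across all genes of the array. The 10 arrays were chosen by their labels alone, 5 from mice aged 25 months and 5 from mice aged 5 months, out of 41 arrays in the study. Both groups carried the same injury, a closed fracture made by 3-point bending over an intramedullary pin, and all mice came from the aged rodent colony of the NIH. Each array held the RNA of a different mouse, and the labels used here give neither strain nor sex. The remaining 31 arrays covered the same ages on days 0, 10 and 20 and entered the fit to estimate the spread. Extracts were either whole bone or callus alone, and the labels do not say which array held which.

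In the first days after a fracture a blood clot fills the gap, neutrophils and then macrophages enter it, and fibroblast-like progenitors divide and lay down a collagen-rich granulation tissue. Cartilage and woven bone form later within that tissue. A long bone lies beside skeletal muscle and holds marrow, so a dissected callus can carry transcripts of mature muscle fibres, regenerating muscle and blood cells.

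The values were the deposited log2 intensities, which compare 1 gene between arrays but not 1 gene with another. A difference below is the old mean minus the young mean on the log2 scale, given ± its standard error (SE) from a limma model, and a gene was called at a Benjamini-Hochberg adjusted p under 0.05 over 19938 genes. With 5 arrays per group, the number of arrays limits the precision of every value.

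The tissue label was first set against markers of fracture callus. Of 6 markers 5 were measured, and the files hold no detection call for them. Col3a1, a collagen of granulation tissue, lay between 10.71 and 11.38 on the young arrays and between 8.91 and 10.95 on the old ones, against means of 8.27 and 7.52 in young and old bone on day 0. Postn, a matrix protein of the activated periosteum, lay between 11.56 and 11.95 in young and between 9.51 and 11.72 in old callus. Its lowest old value was below the young day 0 mean of 9.8 and above the old one of 8.98. Adgre1, the macrophage antigen F4/80, lay between 8.50 and 9.19 in young and between 7.99 and 8.73 in old callus, against day 0 means of 6.84 and 7.62. Col2a1, the main cartilage collagen, lay between 6.09 and 8.74 in young and between 6.02 and 7.24 in old callus, ranges that include its day 0 means of 6.19 and 6.15. Its difference was −0.29 ± 0.37, that of Col1a1 −0.30 ± 0.34, and none of the 5 markers was called. Col1a1 lay between 10.82 and 11.86 in young and between 9.61 and 11.86 in old callus. Its lowest old value was below both day 0 means, 9.86 in young and 9.93 in old bone. The Y-linked genes Eif2s3y, Kdm5d and Uty lay between 6.5 and 8.8 and Xist between 3.4 and 4.1 on all 41 arrays.

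Some arrays stood apart from their group. Old replicate 4 correlated at 0.952 to 0.983 with the other day 5 arrays over all genes, while the young arrays correlated at 0.982 to 0.994 with each other and the remaining old arrays at 0.980 to 0.992. It had the lowest mean of the 10 arrays for the lists of mitosis genes (6.50) and fibrous matrix genes (8.30) and the highest for adipocyte genes (7.35). Old replicate 5 had an epidermis list mean of 6.43, where no other array exceeded 4.90, and its value for Krt5, a keratin of basal epidermis, was 7.51 against 4.16 to 4.49 on the other arrays. Young replicate 5 had the highest cartilage list mean (7.35).

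At day 5, 91 of 19938 genes were called, or 0.456% of those tested, of which 72 (0.361%) were higher and 19 (0.0953%) lower in old callus. Among them 23 of the higher and 5 of the lower genes differed by at least 2-fold. At unadjusted p under 0.05 there were 2988 genes (15%), split nearly evenly into 1524 higher (7.64%) and 1464 lower (7.34%), and the median difference over all genes was −0.02. The 5 old arrays lay wholly above or below the 5 young ones for 45 of the called genes, 31 higher and 14 lower, and for 439 of all genes (2.2%). In the same model the age comparison called 12 genes on day 0 (0.0602%), 10 on day 10 (0.0502%) and 1 on day 20 (0.00502%).

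**Figure D1:**
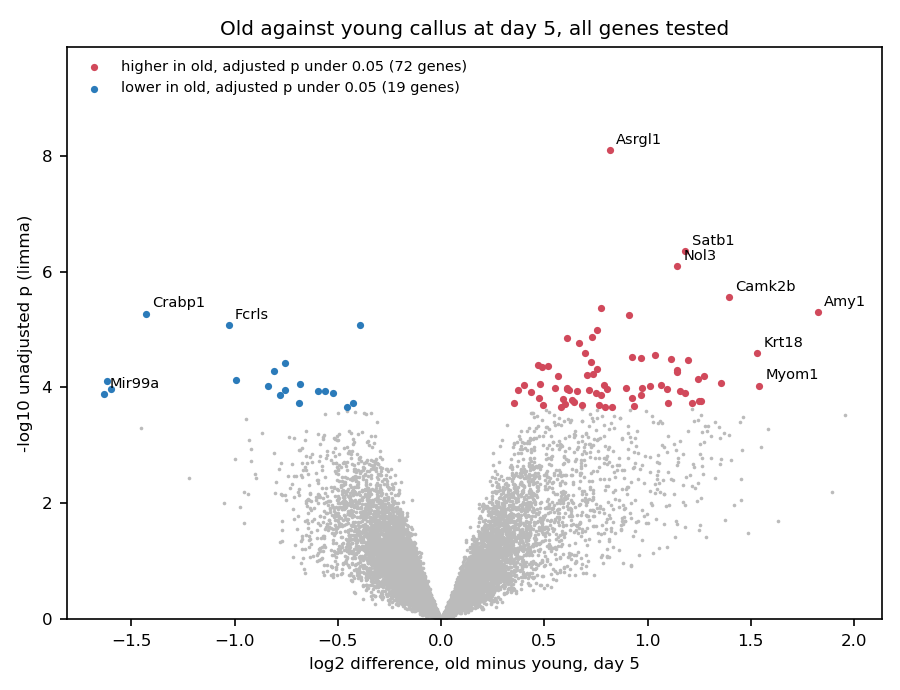
Each point is 1 of 19938 genes, with the log2 difference between old and young callus at day 5 on the x axis and −log10 of the unadjusted limma p on the y axis. The 72 genes called higher in old callus (red) outnumber the 19 called lower (blue), and Asrgl1 has the smallest p.

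The calls depended on single arrays. Old replicate 4 was the highest of all 10 arrays in 64 of the 72 genes called higher and the lowest in 13 of the 19 called lower, against 20.0% and 20.4% of all genes. The called genes were chosen on these same values, which favours an old array as the extreme one. The shares over all genes are therefore not a fair baseline. Only 1 gene, Asrgl1, was called without old replicate 4. Other single arrays also set the count: 2 genes were called without old replicate 5, 10 without old replicate 3, and 10, 3, 4 and 33 without young replicates 1, 2, 3 and 5, while 388, 490 and 454 were called without old replicate 1, old replicate 2 and young replicate 4. The 91 genes kept their sign without old replicate 4, and each of them stayed under an unadjusted p of 0.05. They were chosen by small p on these same arrays, which favours both outcomes, so neither is independent support. The median difference without old replicate 4 was 0.63 in the higher and −0.63 in the lower set, against 0.78 and −0.76 with it. Apart from Asrgl1, every gene described below as called lost its call without that array, and its difference without that array is given where its values are. A fit to the 10 day 5 arrays alone called no gene, with 2857 genes at unadjusted p under 0.05.

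Asrgl1, which encodes an asparaginase-like enzyme that cleaves isoaspartyl peptides, gave the smallest p. On the young arrays its log2 intensities were 6.79, 6.71, 6.74, 7.10 and 7.09, and on the old arrays 7.38, 7.43, 7.63, 8.26 and 7.81. All 5 old arrays thus lay above all 5 young ones. The difference was 0.82 ± 0.11, or 1.76-fold, with an adjusted p of 0.00016. It was 0.68 with an adjusted p of 0.00052 without old replicate 4, and 0.59 with an adjusted p of 0.017 without old replicates 4 and 5. With the day 5 arrays alone its adjusted p was 0.18.

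Nol3, Camk2b, Mef2c, Hspb7 and Syne1 were each called higher in old callus. Nol3, an inhibitor of apoptosis abundant in heart and skeletal muscle, had young values of 7.16, 6.87, 6.67, 7.64 and 7.43 and old values of 8.10, 7.75, 8.17, 8.77 and 8.70. The groups did not overlap, and the difference was 1.14 ± 0.19 (adjusted p = 0.0053). Camk2b, a subunit of the calcium/calmodulin-dependent kinase II, had young values of 5.89, 5.67, 5.87, 6.53 and 5.88 and old values of 6.92, 6.67, 7.12, 8.10 and 8.02. Old replicates 4 and 5 were the highest, young replicate 4 came nearest to the old arrays, and the difference was 1.40 ± 0.25 (adjusted p = 0.014). Mef2c, a transcription factor needed for muscle differentiation and for chondrocyte hypertrophy, had young values of 8.73, 8.55, 8.50, 9.28 and 8.83 and old values of 9.54, 9.36, 9.53, 10.02 and 9.98. It was higher by 0.91 ± 0.17 (adjusted p = 0.014), again without overlap. Hspb7, a small heat shock protein of striated muscle, was higher by 1.26 ± 0.30 (2.39-fold, adjusted p = 0.045), and Syne1, which encodes the nuclear envelope protein nesprin-1, by 0.75 ± 0.15 (adjusted p = 0.018). The differences of Nol3, Camk2b, Mef2c, Hspb7 and Syne1 without old replicate 4 were 1.03, 1.21, 0.83, 1.21 and 0.65, with adjusted p of 0.060, 0.12, 0.12, 0.25 and 0.16.

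Myom1, Cacng1 and Alpk3 were picked here after their values were seen, and passed the test with overlapping arrays. Myom1, which encodes the M-band protein myomesin, ran from 6.50 to 7.84 on the young arrays and from 7.70 to 9.63 on the old ones. Its difference was 1.54 ± 0.35 (adjusted p = 0.038), and only young replicate 4, at 7.84, reached into the old range. Cacng1, the gamma subunit of the calcium channel of skeletal muscle, differed by 1.25 ± 0.30 (adjusted p = 0.045). Alpk3, an alpha-kinase of heart and skeletal muscle, differed by 1.36 ± 0.31 (adjusted p = 0.038). Without old replicate 4 these 3 differences were 1.26, 1.11 and 1.17, with adjusted p of 0.27, 0.28 and 0.26.

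Promoters of the genes called higher were searched for letters that muscle transcription factors are known to bind, on both strands of the 300 bases from 250 before to 50 after each start in the RefSeq table for GRCm38.p6. Of the 72 genes 53 had at least 1 promoter there, 83 in all. The E-box CAGCTG was present in 15 of the 83, or 18.1%, against 16.3% of all 32851 promoters in the table. The MEF2 site was present in 1 (1.20% against 3.19%), that of Alpk3, and the CArG box in 2 (2.41% against 1.63%), those of Mknk2 and Myom1. A match describes letters and is not evidence of binding. The Alpk3 and Myom1 promoters are shown because they belong to the called genes named above that hold such a match, with the MEF2 site (Alpk3, chr7:81057350-81057649, plus strand, bases −35 to −26 from the start, letters that overlap a TATA-box sequence) or the CArG box (Myom1, chr17:71019307-71019606, plus strand, bases −99 to −90) in capitals.
Alpk3: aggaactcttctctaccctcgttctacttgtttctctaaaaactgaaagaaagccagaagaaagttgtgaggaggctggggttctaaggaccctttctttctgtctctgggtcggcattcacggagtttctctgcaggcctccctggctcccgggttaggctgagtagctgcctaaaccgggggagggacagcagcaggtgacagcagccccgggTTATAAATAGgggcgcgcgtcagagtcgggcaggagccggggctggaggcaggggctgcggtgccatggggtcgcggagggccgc
Myom1: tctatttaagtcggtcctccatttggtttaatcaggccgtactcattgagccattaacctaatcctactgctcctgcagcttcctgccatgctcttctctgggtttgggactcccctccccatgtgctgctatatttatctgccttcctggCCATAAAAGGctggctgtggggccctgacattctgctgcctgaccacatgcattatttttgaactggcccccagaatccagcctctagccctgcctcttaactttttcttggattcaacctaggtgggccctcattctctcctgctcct

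The list of mature skeletal muscle genes was described as a whole. None of its 32 measured members was called, while 26 had an unadjusted p under 0.05 in the direction of higher values in old callus, against 7.64% of all genes. The median difference was 0.84 against −0.02 over all genes. Positive differences were found in 29 members (43.5% of all genes) and negative ones in 3, Tnni1 (−0.48), Tnnc1 (−0.18) and Tnnt1 (−0.07). Mybpc2, a myosin-binding protein of fast fibres, showed a difference of 1.58 ± 0.42 (adjusted p = 0.065). Ryr1, the calcium release channel of the sarcoplasmic reticulum, showed 1.37 ± 0.37 (adjusted p = 0.068), and Myoz1, a Z-disc protein, 1.35 ± 0.37 (adjusted p = 0.070). The list mean was 9.17, 8.63, 8.53, 9.49 and 8.82 on the young arrays and 9.45, 9.30, 9.74, 10.11 and 10.12 on the old arrays. Young replicate 4 lay above old replicates 1 and 2, so the groups overlapped. Without old replicate 4 the median was 0.72, with 21 of 32 at unadjusted p under 0.05 (all genes 5.21%). In bulk tissue more cells of a type cannot be told apart from more RNA per cell, and the labels used here do not give the share of muscle in an extract, so its part in the genes called higher was not tested. None of the called genes named above belongs to the list.

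The list of muscle regeneration genes had no called member. Of 14 members 11 had negative differences (56.5% of all genes) and 2 of them an unadjusted p under 0.05 (7.34% of all genes), with a median of −0.19. Without old replicate 4 the median was −0.07, with 1 member at unadjusted p under 0.05 (4.79% of all genes). Myog, the transcription factor of differentiating myoblasts, differed by −0.64 ± 0.30 (adjusted p = 0.30), and Mymx, a peptide needed for myoblast fusion, by −0.51 ± 0.16 (adjusted p = 0.11). The Myog value of old replicate 4 was 6.26, below the 7.79 to 8.40 of the other old arrays, and without that array its difference was −0.28. Genes of mitochondrial respiration had positive differences in all 29 measured members, against 43.5% of all genes, with 13 at unadjusted p under 0.05 (7.64% of all genes) and none called. Their median was 0.27, and 0.18 without old replicate 4, with 6 at unadjusted p under 0.05 (5.21% of all genes). Ndufv1, a subunit of complex I, differed by 0.48 ± 0.15 (adjusted p = 0.10), and Ppargc1a, a coactivator that drives mitochondrial biogenesis, by 0.88 ± 0.27 (adjusted p = 0.10).

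**Figure D2:**
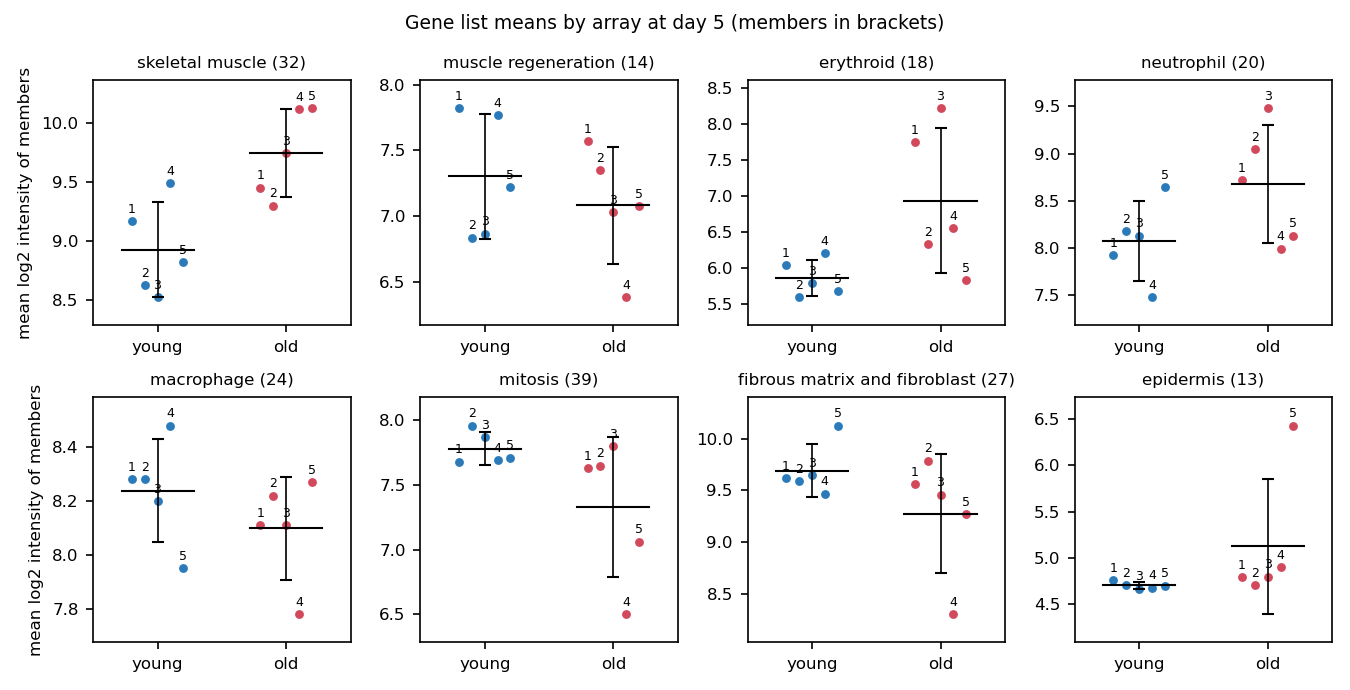
Each point is the mean log2 intensity of a gene list on 1 array (y axis) for the 5 young and 5 old day 5 arrays, numbered by replicate, with the number of members in brackets, and lines and bars show the mean ± SD. Old replicates 4 and 5 are highest for skeletal muscle, old replicate 4 is lowest for mitosis and fibrous matrix, old replicates 1 and 3 are highest for erythroid genes, and old replicate 5 stands alone for epidermis.

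Amy1, Satb1, Gca, Orm1, Hipk2 and Rnf123 were also called higher in old callus. Amy1, the salivary form of amylase, had young values of 5.90, 5.49, 5.43, 6.34 and 5.45 and old values of 6.95, 6.77, 7.38, 8.69 and 7.95. Its difference of 1.82 ± 0.34 (3.54-fold, adjusted p = 0.014) was the largest among the genes called, and because amylase genes have close copies, its probes may read more than 1 of them. Satb1, a chromatin organizer known from T cells, had young values of 6.36, 6.41, 6.51, 6.89 and 6.53 and old values of 7.49, 7.19, 7.54, 8.40 and 8.0. Its difference was 1.18 ± 0.19 (adjusted p = 0.0044), and 1.01 with an adjusted p of 0.052 without old replicate 4. Gca, a calcium-binding protein of neutrophil granules, ran from 4.70 to 5.19 in young and from 5.75 to 7.25 in old callus, with a difference of 1.27 ± 0.28 (adjusted p = 0.038). Old replicate 3 was the highest for Gca and old replicate 4 the lowest of the old arrays, and without old replicate 4 the difference was 1.40 (adjusted p = 0.12). Orm1, the acute phase protein orosomucoid, was higher by 1.07 ± 0.24 (adjusted p = 0.038). Hipk2, a stress-responsive nuclear kinase, was higher by 0.97 ± 0.20 (adjusted p = 0.032), and Rnf123, a ubiquitin ligase, by 0.97 ± 0.23 (adjusted p = 0.039). Those of Amy1, Orm1, Hipk2 and Rnf123 without old replicate 4 were 1.54, 0.90, 0.89 and 0.96, with adjusted p of 0.12, 0.27, 0.22 and 0.22.

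The remaining genes named here that were higher without overlap were Ppp1r1a, an inhibitor of protein phosphatase 1 (1.25 ± 0.28), Inmt, an indolethylamine N-methyltransferase (1.16 ± 0.27), and Tceal5 (0.92 ± 0.19), with adjusted p between 0.032 and 0.038. Leaving out old replicate 4 gave 0.94, 0.82 and 0.79, with adjusted p of 0.26, 0.29 and 0.22. Krt18, a keratin of simple epithelia picked after its values were seen, ran from 4.94 to 5.64 in young and from 5.30 to 8.10 in old callus. Its difference was 1.53 ± 0.32 (adjusted p = 0.032), with old replicate 2 inside the young range, and 1.20 (adjusted p = 0.22) without old replicate 4.

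**Figure D3:**
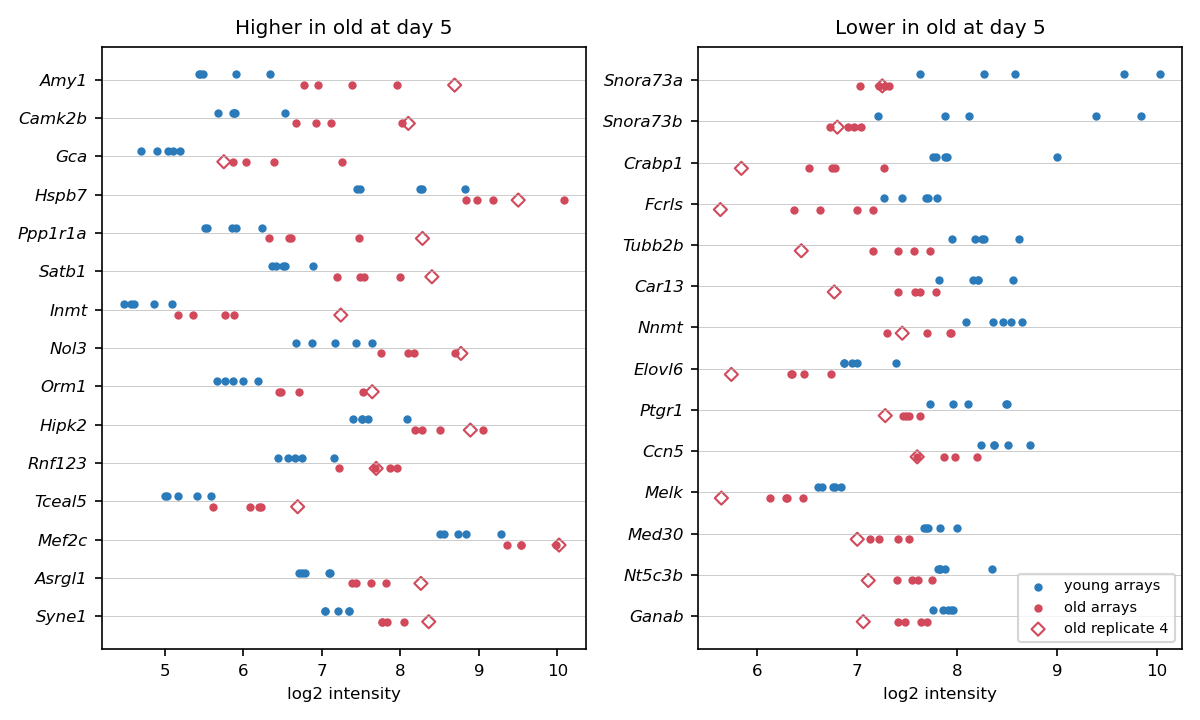
Log2 intensity (x axis) of the genes called at day 5 without overlap, 15 higher (left) and 14 lower (right) in old callus, with 1 point per array. Old replicate 4 (open diamonds) is often the array farthest from the young ones, as for Amy1, Inmt and Fcrls, while for Gca it lies nearest to them.

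Among the genes lower in old callus, Crabp1, which encodes a cytoplasmic retinoic acid-binding protein, had young values of 7.79, 7.90, 9.0, 7.76 and 7.88 and old values of 6.75, 6.78, 7.27, 5.84 and 6.52. No old array reached the lowest young one, and the difference was −1.43 ± 0.27, or 2.69-fold lower (adjusted p = 0.014). Fcrls, a scavenger receptor-like protein of mouse macrophages and microglia, had young values of 7.80, 7.45, 7.27, 7.69 and 7.71 and old values of 7.16, 7.0, 6.63, 5.63 and 6.37. It was lower by 2.04-fold, with a difference of −1.03 ± 0.20 (adjusted p = 0.017). Tubb2b, a beta tubulin, had young values of 8.62, 8.27, 8.18, 8.25 and 7.95 and old values of 7.57, 7.73, 7.41, 6.44 and 7.16, with a difference of −0.99 ± 0.22 (adjusted p = 0.038). Old replicate 4 was the lowest array for all 3 genes, and without it the differences were −1.23, −0.80 and −0.79, with adjusted p of 0.12, 0.13 and 0.27.

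Nnmt, Elovl6, Ptgr1, Car13, Nt5c3b, Bcat1, Ccn5, Med30 and Ganab were also called lower in old callus. Nnmt, which methylates nicotinamide, ran from 8.09 to 8.65 in young and from 7.30 to 7.94 in old callus and was lower by 1.69-fold (−0.75 ± 0.16, adjusted p = 0.033). Here old replicate 3 was the lowest, and the difference without old replicate 4 was −0.70 (adjusted p = 0.22). Elovl6, which elongates fatty acids, differed by −0.69 ± 0.17 (adjusted p = 0.046), and Ptgr1, a prostaglandin reductase, by −0.68 ± 0.15 (adjusted p = 0.038). Car13, a carbonic anhydrase, differed by −0.76 ± 0.18 and Nt5c3b, a nucleotidase, by −0.46 ± 0.11. Bcat1, the cytosolic transaminase of branched-chain amino acids, differed by −0.81 ± 0.18 (adjusted p = 0.036), with old replicate 2 at 7.99 inside the young range of 7.94 to 8.50. Ccn5, a secreted matricellular protein, ran from 8.24 to 8.73 in young and from 7.60 to 8.20 in old callus, a difference of −0.59 ± 0.14 (adjusted p = 0.038). Med30, a subunit of Mediator, and Ganab, a glucosidase of the endoplasmic reticulum, differed by −0.52 ± 0.12 and −0.42 ± 0.10. Leaving out old replicate 4 gave differences of −0.54 for Elovl6, −0.63 for Ptgr1, −0.59 for Car13, −0.36 for Nt5c3b, −0.58 for Bcat1, −0.53 for Ccn5, −0.46 for Med30 and −0.33 for Ganab, with adjusted p between 0.23 and 0.32.

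The 3 most negative differences among the called genes were those of the noncoding RNA genes Mir99a, Snora73a and Snora73b. Snora73a, a small nucleolar RNA that acts in ribosomal RNA processing, had young values of 8.58, 9.67, 10.03, 7.63 and 8.27 and old values of 7.28, 7.22, 7.32, 7.25 and 7.03. The old arrays lay close together (SD 0.11) below a wide young range (SD 1.00), and the difference was −1.62 ± 0.36 (adjusted p = 0.038). Its near-identical copy Snora73b differed by −1.60 ± 0.37 (adjusted p = 0.038), and the probes may not tell the copies apart, so they do not count as independent. Both had an adjusted p of 0.22 without old replicate 4, with differences of −1.62 and −1.58. Over 54 small nucleolar RNA genes measured, 42 had negative differences (56.5% of all genes), and the median was −0.30, or −0.18 without old replicate 4. The 2 called lower (0.0953% of all genes) were these copies.

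The probe set of Mir99a, a microRNA gene within the host transcript Mir99ahg, was picked after its values were seen and had young values of 6.32, 6.09, 6.26, 5.20 and 7.42 and old values of 4.33, 5.21, 4.40, 4.70 and 4.47. Old replicate 2, at 5.21, just passed young replicate 4, at 5.20, and the difference was −1.63 ± 0.38 (adjusted p = 0.039), or −1.65 (adjusted p = 0.22) without old replicate 4. The same cluster showed smaller differences in Mir99ahg (−0.64 ± 0.23, adjusted p = 0.17), Mirlet7c-1 (−0.17 ± 0.13) and Mir125b-2 (−0.10 ± 0.06). The assay amplified total RNA without selecting short RNAs, so whether the signal came from the mature microRNA was not tested. The mature arms from RefSeq, on chr16:77598940-77598961 and chr16:77598977-77598997 of GRCm38.p6, plus strand, are shown because this gene had the most negative difference of all genes called, with the seed (bases 2 to 8) in capitals.
mmu-miR-99a-5p: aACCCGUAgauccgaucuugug
mmu-miR-99a-3p: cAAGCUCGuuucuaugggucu

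Of 39 mitosis genes 1 was called, and it was lower in old callus, against 0.0953% of all genes called lower. Melk, a kinase of dividing cells, ran from 6.61 to 6.84 in young and from 5.64 to 6.46 in old callus, a difference of −0.56 ± 0.13 (adjusted p = 0.038), or −0.43 (adjusted p = 0.29) without old replicate 4. All 39 members had negative differences, against 56.5% of all genes, 17 at unadjusted p under 0.05 (all genes 7.34%), and their median was −0.48. The list mean was between 7.68 and 7.96 on the young arrays and was 7.63, 7.65, 7.80, 6.50 and 7.06 on the old arrays. Old replicates 1, 2 and 3 were thus at or near the young range, while replicates 4 and 5 lay below it. Without old replicate 4 the median was −0.27 with 5 members at unadjusted p under 0.05 (all genes 4.79%). Mki67, the proliferation antigen, differed by −0.08 ± 0.28 (adjusted p = 0.93), and by 0.16 without old replicate 4. Of 31 genes of DNA replication 29 had negative differences (56.5% of all genes), 6 at unadjusted p under 0.05 (7.34% of all genes) and none called, with a median of −0.27. Without old replicate 4 the median was −0.17, with 3 at unadjusted p under 0.05 (4.79% of all genes). Orc6, a subunit of the origin recognition complex, differed by −0.52 ± 0.15 (adjusted p = 0.078).

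The fibrous matrix and fibroblast list had negative differences in all 27 members (56.5% of all genes), 11 at unadjusted p under 0.05 (7.34% of all genes), with none called and a median of −0.39. Vim, the intermediate filament of mesenchymal cells, differed by −0.25 ± 0.09 (adjusted p = 0.14), and Pdgfra, a receptor of fibroblast progenitors, by −0.49 ± 0.18 (adjusted p = 0.17). The list mean of old replicate 4 was 8.30, against 9.27 to 9.79 on the other old and 9.47 to 10.13 on the young arrays. Without that array the median was −0.16 with 2 members at unadjusted p under 0.05 (4.79% of all genes). Lists of cartilage matrix (median −0.14), osteoblast and bone matrix (−0.09), osteoclast (0.09) and osteocyte genes (−0.09) had no called member. Those medians were −0.06, 0.05, 0.12 and −0.13 without old replicate 4. In the hypertrophic cartilage list 1 of 11 members was called higher (0.361% of all genes), Mef2c, which is also a muscle factor. No other member had an unadjusted p under 0.05, and the list median was 0.06, or 0.32 without old replicate 4.

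None of the inflammatory genes listed passed the test for age, but only 0.456% of all genes did. With that share, lists of this size would rarely hold a called gene. Il6 had young values of 7.41, 7.16, 8.09, 7.09 and 5.33 and old values of 5.75, 6.95, 8.15, 6.26 and 7.65, against group means of 3.62 and 3.61 on day 0. The groups overlapped widely, with a difference of −0.06 ± 0.44 (adjusted p = 0.97). Ptgs2, the inducible cyclooxygenase, differed by −0.13 ± 0.34 and by 0.21 without old replicate 4. Tnf differed by −0.25 ± 0.20, Il1b by 0.49 ± 0.36 and Ccl2, the monocyte attractant, by −0.55 ± 0.34, with adjusted p between 0.47 and 0.60. The medians were −0.06 over 23 inflammatory cytokines and receptors, 0.01 over 24 chemokines and −0.10 over 28 interferon response genes, with no member called, and 0.05, 0.05 and −0.05 without old replicate 4. At unadjusted p under 0.05, 1 member was higher and 1 lower in each of the first 2 lists. The interferon list had 0 either way, against 7.64% higher and 7.34% lower over all genes. With standard errors of this size, a difference in either direction could have gone undetected. Cxcl13, a B-cell attractant, had all old arrays (6.67 to 8.45) above all young ones (6.00 to 6.61), but its difference of 1.42 ± 0.53 did not pass (adjusted p = 0.18).

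Blood cell lists varied widely among the old arrays. All 18 erythroid genes had positive differences (43.5% of all genes), 10 at unadjusted p under 0.05 (7.64% of all genes), with a median of 1.17 and none called. Their list mean was between 5.60 and 6.21 on the young arrays and was 7.75, 6.33, 8.22, 6.55 and 5.83 on the old arrays, so that replicates 1 and 3 were far above the rest and replicate 5 lay within the young range. Car1, a carbonic anhydrase of red cells, differed by 1.89 ± 0.66 (adjusted p = 0.15). All 20 neutrophil genes had positive differences (43.5% of all genes), with a median of 0.62, 5 at unadjusted p under 0.05 (7.64% of all genes) and none called. The median was 0.74 with 11 such members without old replicate 4 (5.21% of all genes) and 0.82 with 9 without old replicate 5 (5.87% of all genes). Ltf, the granule protein lactoferrin, was 9.64, 9.66 and 10.44 on old replicates 1, 2 and 3 and 7.89 on both replicates 4 and 5, against 7.52 to 9.18 in young callus. Of 24 macrophage genes 18 had negative differences (56.5% of all genes), 4 at unadjusted p under 0.05 (7.34% of all genes), with a median of −0.22 and none called. The median without old replicate 4 was −0.12, with 2 at unadjusted p under 0.05 (4.79% of all genes). Folr2, a folate receptor of tissue-resident macrophages, differed by −0.53 ± 0.16 (adjusted p = 0.094). The other 6 members of the list had positive differences. The largest was that of Vsig4, at 0.80 (adjusted p = 0.36), with all old arrays above all young ones. Jchain, which joins immunoglobulin chains in plasma cells, showed 1.96 ± 0.49 (adjusted p = 0.053), the largest difference among all list members, with young replicate 5 at 5.89 above old replicate 5 at 5.51. Its list of 12 plasma cell and immunoglobulin genes had a median of only 0.13, or 0.11 without old replicate 4. Of the 12, 9 had positive differences (43.5% of all genes), 2 at unadjusted p under 0.05 (7.64% of all genes), and none was called.

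**Figure D4:**
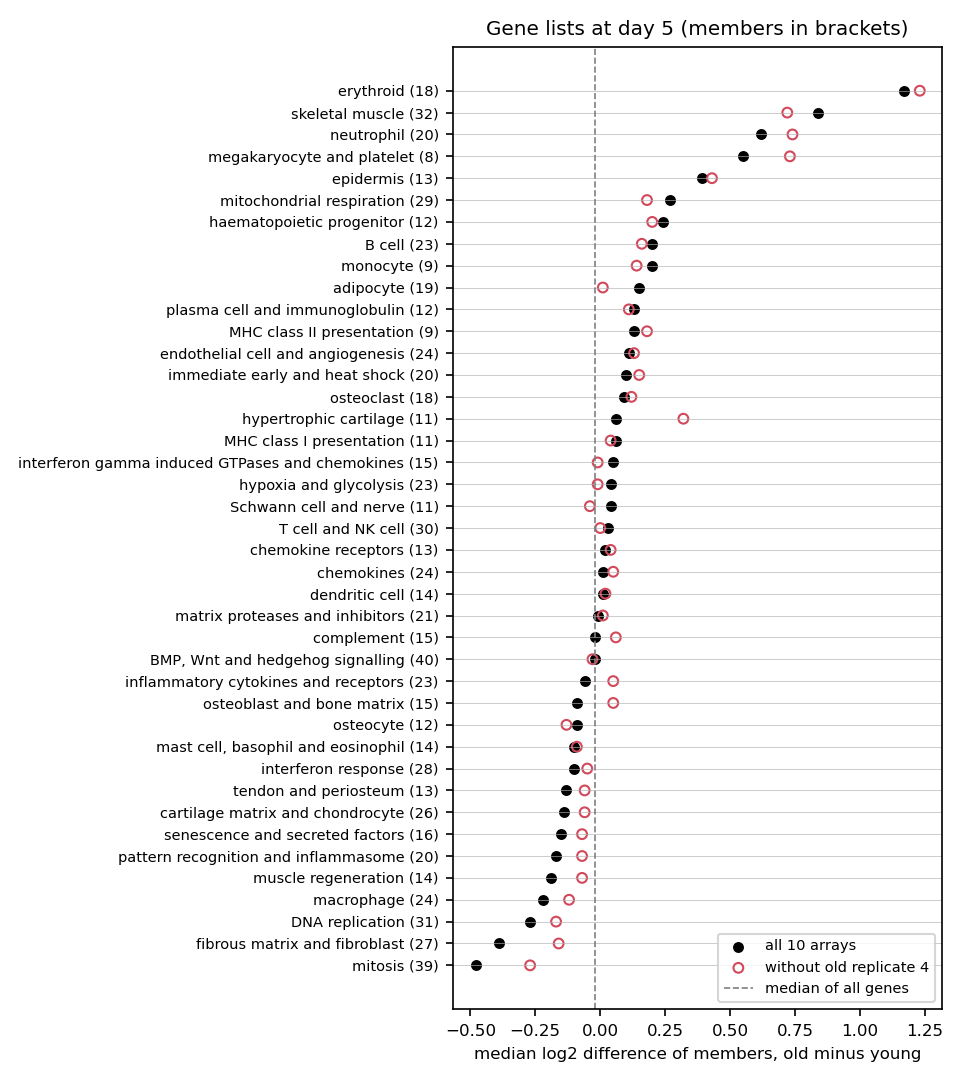
Median log2 difference between old and young callus at day 5 (x axis) over the measured members of each of 41 gene lists, with all 10 arrays (black) and without old replicate 4 (open circles), and the median of all genes as a dashed line. Erythroid (1.17) and skeletal muscle genes (0.84) lie highest and mitosis genes (−0.48) lowest, and the mitosis and fibrous matrix medians move toward 0 without old replicate 4.

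The genes called at day 5 were also set against the age comparison on the other days. Of the 72 higher genes 59 had a positive difference on day 0, 35 on day 10 and 46 on day 20, against 49.1%, 51.3% and 43.2% of all genes, with medians of 0.09, −0.01 and 0.08. Of the 19 lower genes 16, 13 and 12 had a negative difference on those days, against 50.9%, 48.7% and 56.8% of all genes, with medians of −0.13, −0.22 and −0.02. None of the 91 was called on day 0 or 20, and 1 was called on day 10. With 0.0602% and 0.00502% of all genes called on days 0 and 20, the lack of calls there says nothing particular of the 91 genes. On day 10, where 0.0502% of all genes were called, the 1 called gene was among the 19 lower ones, and a single gene does not describe the set. The change of the age difference itself was tested for each gene. Between day 5 and day 0 no gene passed in the limma fit (0.0%, with 1562 at unadjusted p under 0.05, or 7.83%). Between day 5 and day 20, 1 gene passed (0.00502%), Asrgl1, whose difference was larger at day 5 by 1.04 ± 0.16 (adjusted p = 0.0014). It was 0.82 at day 5 and −0.23 at day 20, where the age comparison did not call it (adjusted p = 0.33). Between day 5 and day 10, 2 genes passed (0.01%). Bcat1 changed by −1.34 ± 0.25, from −0.81 at day 5 to 0.53 at day 10, and Fam207a by −0.80 ± 0.15, from −0.42 to 0.38, both with an adjusted p of 0.045. Neither passed without old replicate 4, where limma called 0 genes and 1565 had an unadjusted p under 0.05.

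The group means over time show where day 5 stood. Asrgl1 was at 7.45 ± 0.15 (SD, n = 5) in young and 7.67 ± 0.07 (SD, n = 6) in old bone on day 0, at 6.88 ± 0.19 and 7.70 ± 0.36 on day 5, and at 7.22 ± 0.17 and 7.24 ± 0.06 on day 10 (n = 5 each). The young mean was thus low on day 5 while the old mean was close to its day 0 value. The same held for Amy1, at 7.10 ± 0.80 and 7.56 ± 0.60 on day 0 and 5.72 ± 0.40 and 7.55 ± 0.78 on day 5. Of the 72 higher genes, 37 had their lowest mean of all 8 groups in young day 5 callus and 39 their highest mean in old day 5 callus. Of the 19 lower genes, 15 had their highest mean of all groups in young day 5 callus, and 13 were also higher in old callus at day 5 than in old bone on day 0. Crabp1 stood at 5.99 ± 0.22 and 5.37 ± 0.23 on day 0 and at 8.06 ± 0.53 and 6.64 ± 0.52 on day 5, and Tubb2b at 5.65 ± 0.19 and 5.82 ± 0.24 and then at 8.25 ± 0.24 and 7.26 ± 0.51. Day 5 entered the choice of these genes, and the same counts over all genes were not made, so their place among the groups is a description.

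**Figure D5:**
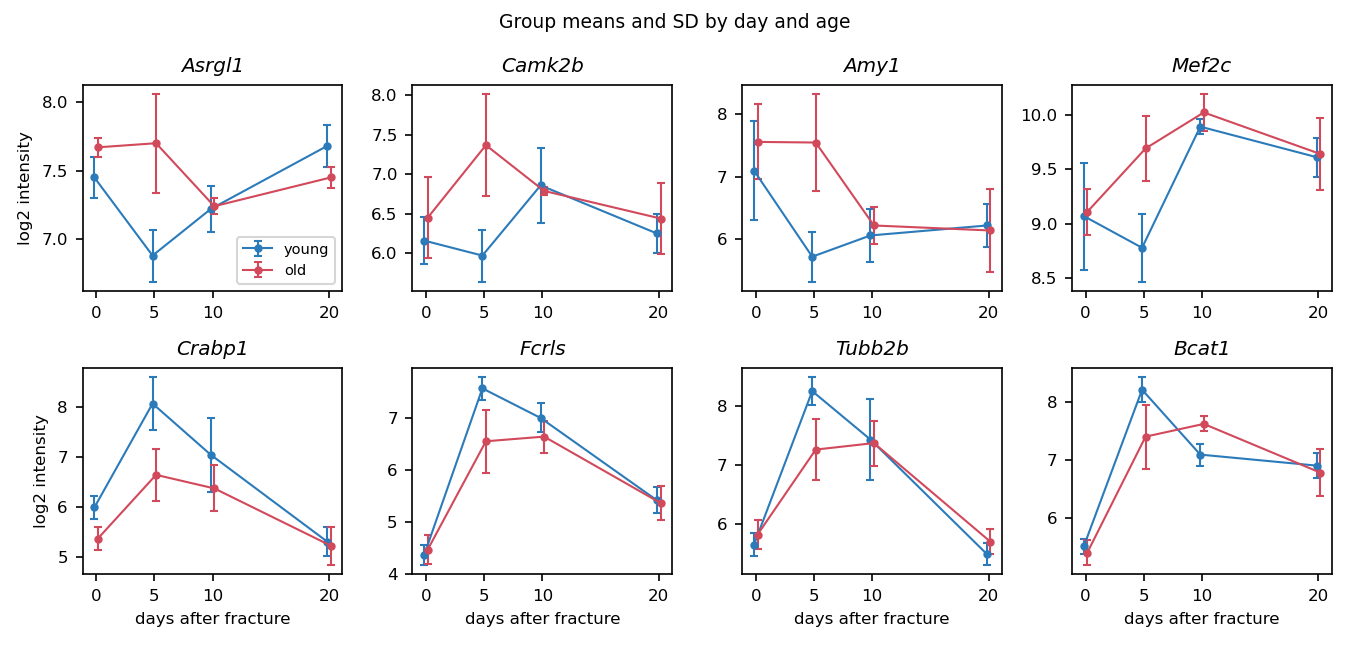
Mean log2 intensity ± SD (y axis) against days after fracture (x axis) in young (blue) and old (red) mice, 5 arrays per point and 6 for old day 0. Asrgl1, Camk2b, Amy1 and Mef2c are higher and Crabp1, Fcrls, Tubb2b and Bcat1 lower in old callus at day 5, and the means of most of these genes lie close together on day 20.

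The authors' deposited table gave 20 of 28815 probe sets an adjusted p under 0.05 for the same comparison, 15 with a ratio above 1 and 5 below it. Of the 91 genes called here 14 were among them, and in the authors' deposited table Asrgl1 had a ratio of 1.76 with an adjusted p of 0.000482.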

How the data were processed

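Affymetrix Mouse Gene 1.0 ST arrays held log2 intensities that the authors normalized before they deposited them. The submitters' processing notes name Partek. Its settings and the genome build are not given in the sources used for this work. No normalization was added. The deposited table also held p-value and ratio columns, made by ANOVA contrasts per the file headers, and these were only counted or quoted. Per the file headers, it further held signed fold changes (other) and the ANOVA's score columns, F values and sums of squares, none of which was used. Of 28815 probe sets, 21782 had 1 gene in the platform annotation, 5435 were not listed and 1598 had several genes. Each gene was read from its brightest probe set by mean, which gave 19938 genes.

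A limma 3.58.1 model (R 4.3.3) held a mean for each of 8 groups over 41 arrays (33 residual degrees of freedom). It gave moderated two-sided tests with Benjamini-Hochberg adjustment per contrast, and was tested on simulated data. The simulated noise was independent between genes and held no outlying array, so that test does not cover the dependence of the calls on single arrays. Further tools were pandas 2.3.3, numpy 2.4.6 and matplotlib 3.10.9 under python 3.11.15. The 42 gene lists came from textbook knowledge, and their members and the rules were chosen with earlier results of these data known. Genes were named by rule: the 15 highest and 15 lowest called without overlap (14 lower ones passed), predicted genes skipped, up to 5 called or otherwise 3 members with the smallest p per list, up to 6 called per difference between days, and Ptgs2, Il6, Tnf, Il1b, Ccl2 and Mki67. Promoter and microRNA sequences were RefSeq's. Alternatives were other normalizations, filters, variance models, weights, a replicate block and leaving out arrays. No pair of day 5 arrays was identical.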

Additional observations from a re-analysis of the deposited data

Results flagged for a closer look

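The age difference itself changed between days for Asrgl1, by 1.04 between day 20 and day 5, and for Bcat1 and Fam207a, by −1.34 and −0.80 between day 10 and day 5. Both probe set classes left out of the gene table held calls at day 5: 11 of 5435 probe sets with no gene in the annotation and 5 of 1598 with several genes. Over all 28815 probe sets 117 were called, a larger share than in either class, so these counts are not particular to the classes.

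Single arrays lay far from the others of their group in 12 of 152 groups examined, where chance alone flags about 1 in 20. Among genes, young replicate 4 was the highest of its group for Hipk2 (8.08, the others 7.39 to 7.58) and Camk2b (6.53, the others 5.67 to 5.89). Young replicate 3 was the highest for Crabp1 (9.0, the others 7.76 to 7.90), and young replicate 5 for Elovl6 (7.39) and Nt5c3b (8.35). Among list means, young replicate 5 was the highest for cartilage matrix (7.35, the others 5.95 to 6.31), fibrous matrix (10.13), T and NK cells (5.10) and BMP, Wnt and hedgehog signalling (6.56). Young replicate 1 was the highest for adipocyte genes (6.73). Old replicate 4 was the lowest for pattern recognition genes (6.36, the others 6.79 to 6.82), and old replicate 5 the highest for epidermis (6.43, the others 4.71 to 4.90). What set these arrays apart was not tested.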

How the results depend on the processing

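Each result was recomputed under alternatives listed with the design, to which a fit to all probe sets and one without old replicates 4 and 5 together were added after the data were seen. The day 5 count of 91 called genes (72 higher, 19 lower) became 154 (127 higher) with the dimmest genes left out (14953 kept) and 202 (161 and 41) with more left out (9969 kept), where fewer genes were tested. It became 14 (11 and 3) with unmoderated ANOVA tests, 457 (326 and 131) with array weights, 28 (23 and 5) with a 2-fold minimum, 3 (3 and 0) at adjusted p under 0.01 and 20 by the p values of the authors' deposited table. The 10 day 5 arrays alone gave 0 (0 and 0), with 2857 at unadjusted p under 0.05. Lower genes numbered 29 after quantile normalization, 12 with only the arrays whose label names start with H and 29 over all probe sets. With the replicate number as a replicate block 101 genes were called, but deviations of arrays with the same number correlated at −0.18 to 0.30, with 2 of 5 best matched to their own number, so the numbers pair nothing.

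Leaving out 1 array gave 1 to 490 called genes, 1 to 349 higher and 0 to 145 lower. The count was 10, 3, 4, 454 and 33 without young replicates 1 to 5 and 388, 490, 10, 1 and 2 without old replicates 1 to 5, and 1 (1 and 0) without old replicates 4 and 5 together. The cause of this range was not tested. The 35 called genes named in the report kept their direction under every refit. They were chosen on these same values, most of them without overlap between old and young arrays, so a kept direction is not independent support. Asrgl1 stayed called in 21 of 22 refits. The changed thresholds are not among these 22, and at 1.76-fold Asrgl1 did not reach the 2-fold minimum.

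For the change of the age difference from day 0, 0 genes became 2 with array weights and stayed at 0 to 0 when arrays were left out. From day 10, 2 genes became 5 after quantile normalization or median centring, 4 and 8 without dim genes, 158 with array weights, 7 with the replicate block, 1 with a 2-fold minimum and 0 with unmoderated tests, trended robust moderation, the groups compared alone, adjusted p under 0.01 or without old replicates 4 and 5, and ran from 0 to 47 when an array was left out. From day 20, 1 gene became 2 after quantile normalization and ran from 1 to 30 when an array was left out. Lists with a called member went from 2 to 8 and 7 without dim genes, 19 with array weights, 4 with the replicate block, 1 with unmoderated tests and 0 with the day 5 arrays alone, a 2-fold minimum, adjusted p under 0.01 or without old replicates 4 and 5, and from 0 to 14 when an array was left out.

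Differences of 3 genes that were not called changed sign. Ptgs2 ran from −0.34 to 0.21 when 1 array was left out, highest without old replicate 4, and was 0.23 with array weights and 0.34 without old replicates 4 and 5. Il6 ran from −0.49 to 0.24, positive without young replicate 1 or 3 or old replicate 1 or 4, and was 0.11 with array weights. Mki67 ran from −0.25 to 0.16, positive without old replicate 4 or 5, and was 0.17 with array weights and 0.41 without both. The files give no background level or detection call, so signal over background is unknown.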
